A study of Homo sapiens with 12 samples.

Results

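The comparison described here is of JJN3 cells, a human multiple myeloma cell line, given MS023 at 10 µM against the same cells given the vehicle DMSO, with 3 samples a group and 3 days in culture. Of 59276 gene symbols in the table, 12903 whose log2(TPM+1) averaged more than 1 in DMSO or in MS023 were tested. TPM (transcripts per 1000000) is a level per transcript length that sums to the same total in every library, so read depth is unknown from these values. A log2 fold change is the MS023 mean minus the DMSO mean of log2(TPM+1), a scale that understates the change of low genes, and each carries its standard error (SE) and an adjusted p from limma with Benjamini-Hochberg adjustment over all genes tested. A gene was called higher or lower where this p was under 0.05 and the log2 fold change was beyond 0.48 in that direction. The other 6 libraries come from JJN3 cells with Cas9 and an inducible guide, either a control guide (isgCtrl, n = 3) or a PRMT1 guide (PRMT1-KO, n = 3), and are used only as a reference for levels. Nothing in the labels says that replicates came from separate cultures, so the p-values measure the spread between these samples, which may be technical. With 3 against 3, an exact permutation test of 1 gene cannot go below p = 0.1.

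Protein arginine methyltransferases add methyl groups to arginines of histones, of RNA-binding proteins with arginine and glycine repeats, and of signalling proteins. Type I enzymes, of which PRMT1 is the main one in most cells, place asymmetric dimethylarginine, and MS023 inhibits this class. Myeloma cells are malignant plasma cells: they secrete immunoglobulin, depend on a large endoplasmic reticulum (ER), and express chemokines and adhesion molecules used in the bone marrow.

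Plasma cell identity was checked first. The surface proteoglycan gene SDC1 had 103, 98.1 and 104 TPM in DMSO and 133, 128 and 139 TPM in MS023, and IRF4, a factor that plasma cells require, had 94.8, 89.5 and 101 TPM in DMSO and 104, 97.3 and 127 TPM in MS023. The B cell genes MS4A1 and PAX5 were close to 0, at means of 0.129 and 0.015 TPM in DMSO. Of 12 T and NK cell markers 1 was high enough to be tested, as was 1 of 12 myeloid markers. These were GZMB, a granule protease, at means of 0.074 TPM in DMSO and 2.23 TPM in MS023, and FCER1G, a receptor subunit, at 0.127 and 1.23 TPM. Both were tested only through their MS023 mean and were called higher. FCER1G lost its call with all genes above 0 fitted (limma adjusted p = 0.056). It also lost it without DMSO replicate 2 (adjusted p = 0.0534) or 3 (adjusted p = 0.0543).

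The libraries of the drug experiment held a second immunoglobulin light chain. Kappa transcripts were abundant in all 12 libraries, with IGKC at means of 14037 TPM in DMSO, 17513 TPM in MS023 and 14152 TPM in isgCtrl. Lambda transcripts were abundant only in the DMSO and MS023 libraries. IGLV2-14, a lambda variable gene, had 3329, 3489 and 3549.9 TPM in DMSO and 6629.9, 6136 and 6552 TPM in MS023, against 30.7, 24.2 and 3.28 TPM in isgCtrl. IGLC1, a lambda constant gene with near-identical copies, went from a mean of 1921 to 3855 TPM, against 25.6 TPM in isgCtrl. The share of lambda in the sum of these 2 lambda genes with IGKC and IGKV3-15 was 14.5% to 15.6% in DMSO, 21.1% to 21.5% in MS023 and 0.0821% to 0.183% in isgCtrl. IGLV2-14 rose by 0.90 (SE 0.07, limma adjusted p = 0.000242), while IGKC had a log2 fold change of 0.32 (SE 0.06, adjusted p = 0.00593) and was not called.

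Genes with the same distribution were sought after this was seen. 21 tested genes exceeded 5 TPM in each DMSO library and stayed under 1 TPM in each of the 6 Cas9 libraries, and their MS023 to DMSO ratio of mean TPM had a median of 1.89 and a range of 0.735 to 5.88, with 18 ratios above 1. They include IGLV2-11, SLAMF7, LILRB4, APOL3, AQP3, PTPRCAP and MAGEA1. Bulk RNA cannot tell a change in the number of cells that make a transcript from a change in RNA per cell, and the part of these transcripts in the results was not tested. Therefore the isgCtrl level stands beside key results, and counts are repeated over the 10826 genes whose DMSO mean lies within 0.5 log2 units of the isgCtrl mean, called control-matched genes below. On the log2(TPM+1) scale a gene near 0 in both controls passes this limit whatever its ratio. CTLA4 passes, for example, with means of 0.217 TPM in DMSO and 0.053 TPM in isgCtrl. For such low genes the limit does not show that the 2 controls are alike. The 2 control groups also differ in Cas9, guide and induction.

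**Figure D1:**
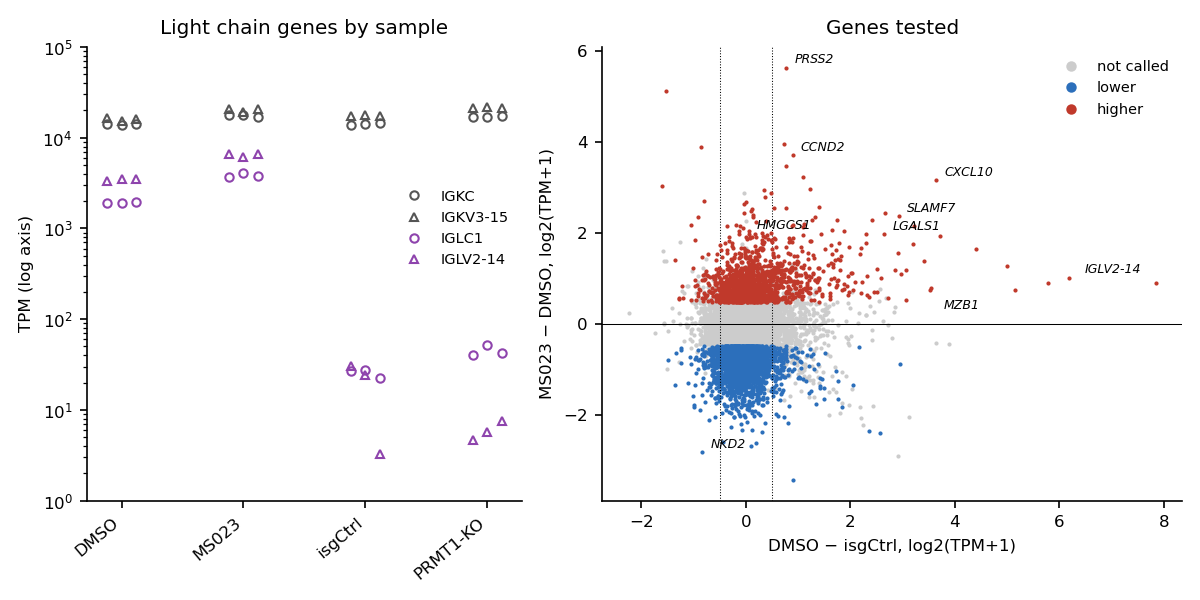
Left, TPM on a log axis of 2 kappa (IGKC, IGKV3-15) and 2 lambda (IGLC1, IGLV2-14) genes in each of the 12 libraries, each symbol a library. Right, for each of the 12903 genes tested, the DMSO minus isgCtrl difference (x axis) against the MS023 minus DMSO difference (y axis) in log2(TPM+1), with called genes in colour and dotted lines at 0.5 either side of 0. Lambda genes are high in DMSO and MS023 and low in both Cas9 groups, and CXCL10, SLAMF7 and LGALS1 lie to the right with them while PRSS2, CCND2 and NKD2 lie within 1 unit of 0 on the x axis.

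Across all genes tested, 30.9% were called, 11.6% higher and 19.3% lower, and counts of list members below are read against these shares. The division into higher and lower depends on scaling: 62.4% of the called genes were lower on the deposited scale, 49.1% after median-ratio scaling and 50.1% after quantile normalization. The median gene had a log2 fold change of -0.11, and median-ratio scaling moved it by 0.103. Among control-matched genes 1080 were higher and 2158 lower. Where a list has 0 calls by limma in a direction, members with an unadjusted p under 0.05 in that direction were counted as well. There were 0, 3 and 2 such genes below DMSO in the interleukin, TNF family and ER lists, and 3, 8, 4 and 0 above DMSO in the tRNA synthetase, nuclear respiratory chain, ribosomal protein and arginine methyltransferase lists. Genes of cell division (202 of 230 tested members lower) are left aside below, where 38 other lists were examined.

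Promoter sequences are shown for genes of 3 lists, interferon-stimulated, ER and lysosomal, whose share of rises was above that of all genes tested. CXCL10 and CXCL9 are printed beside the interferon-stimulated genes but belong to the chemokine list. A search of the RefSeq promoter windows (GRCh38.p14, 250 bases before to 50 bases after each start, both strands) used the interferon response element GAAANNGAAA, the ER stress element, which is CCAAT and CCACG with 9 bases between them, and the lysosomal E-box TCACGTGA. Windows were found for 9430 of the genes tested. The interferon response element was in 4.05% of these genes and in 25 of 39 interferon-stimulated genes, the ER stress element in 0.159% and in 7 of 30 ER genes, and the E-box in 2.43% and in 7 of 39 lysosomal genes. The stretches below are printed 5′ to 3′ on the gene's strand with the element, or its reverse complement, in capitals; a match is a description and no evidence of binding.
ISG15 (chr1:1013365-1013424, plus strand): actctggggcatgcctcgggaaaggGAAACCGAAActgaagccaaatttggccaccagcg
IFIT3 (chr10:89327850-89327909, plus strand): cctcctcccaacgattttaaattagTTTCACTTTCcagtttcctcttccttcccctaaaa
MX1 (chr21:41431829-41431888, plus strand): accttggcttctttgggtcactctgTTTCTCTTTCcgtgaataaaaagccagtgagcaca
CXCL10 (chr4:76023684-76023743, minus strand): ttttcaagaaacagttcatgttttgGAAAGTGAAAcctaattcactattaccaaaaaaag
CXCL9 (chr4:76007646-76007705, minus strand): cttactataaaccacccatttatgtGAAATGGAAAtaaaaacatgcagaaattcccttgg
IFIH1 (chr2:162318685-162318730, minus strand): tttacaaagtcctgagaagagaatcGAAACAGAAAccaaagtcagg
HSPA5 (chr9:125241366-125241434, minus strand): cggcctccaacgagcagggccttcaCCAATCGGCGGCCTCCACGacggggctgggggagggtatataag
CALR (chr19:12938359-12938427, plus strand): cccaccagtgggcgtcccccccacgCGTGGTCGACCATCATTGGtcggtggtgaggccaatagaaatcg
HSP90B1 (chr12:103930296-103930364, plus strand): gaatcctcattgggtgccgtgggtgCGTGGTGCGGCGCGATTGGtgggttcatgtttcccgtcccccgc
CTSA (chr20:45891284-45891334, plus strand): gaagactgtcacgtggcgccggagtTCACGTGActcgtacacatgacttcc
LAMP1 (chr13:113297185-113297238, plus strand): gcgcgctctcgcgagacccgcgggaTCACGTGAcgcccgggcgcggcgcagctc
The first 6 carry the interferon response element, and 5 of these genes rose while IFIH1 fell. HSPA5, CALR and HSP90B1 carry the ER stress element, and the first 2 of them rose. CTSA and LAMP1 carry the E-box, and both rose. The genes printed were picked, some after their values were seen, so these calls are no measure of the lists. Of the list genes with their element, 13 of 25 interferon-stimulated, 3 of 7 ER and 4 of 7 lysosomal genes were higher. In the same order, 1, 0 and 1 were lower.

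Chemokines were among the strongest responses. Of 16 tested chemokine and receptor genes, 10 were higher and 1 lower, with a median log2 fold change of 1.23. CCL3 encodes a ligand of CCR1 that myeloma cells secrete and that acts on bone cells; it lies on chromosome 17 from 36088256 to 36090169 on the minus strand of GRCh38. It had 483, 435 and 448 TPM in DMSO and 1861, 1876 and 1918 TPM in MS023, a 4.14-fold higher mean (log2 fold change 2.05, SE 0.07, adjusted p = 5.16e-05), and its isgCtrl mean of 438 TPM was near that of DMSO. CCL4, its neighbour at chromosome 17 from 36103827 to 36105621 on the plus strand, went from 1.65, 1.94 and 2.23 to 22.8, 20.7 and 22 TPM. CCL3L3, a near-identical copy of CCL3 whose reads can be split between copies, went from 17.7, 14.2 and 12.3 to 242, 234 and 239.9 TPM (3.94, SE 0.13). In each of these 3 genes every MS023 library was above every DMSO library.

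The interferon-induced ligands of CXCR3 rose as well. CXCL10 had 21.3, 20.5 and 20.2 TPM in DMSO and 192, 186 and 196 TPM in MS023 (log2 fold change 3.15, SE 0.06, adjusted p = 1.1e-05), but only 0.788 TPM on average in isgCtrl. CXCL9 went from 1.53, 1.44 and 1.37 to 23.3, 20.5 and 21.8 TPM, a 15.1-fold higher mean, with 0.143 TPM in isgCtrl. CCL5, which attracts T cells, rose by 1.66 (SE 0.09, adjusted p = 8.95e-05). Among receptors CCR1 rose by 1.07, from a mean of 23.9 to 51.2 TPM. CXCR4, the receptor that holds plasma cells in the marrow, fell, with 28.3, 24.7 and 25.2 TPM in DMSO and 13.5, 12.8 and 13.9 TPM in MS023 (-0.91, SE 0.08, adjusted p = 0.000371). Over control-matched genes 3 of 7 chemokine genes were higher, among them CCL3.

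Cytokine genes moved mostly upward. Of 16 interleukin and receptor genes, 9 were higher and 0 lower. IL10, an anti-inflammatory cytokine, had 0.493, 0.824 and 0.633 TPM in DMSO and 11.4, 12 and 14.1 TPM in MS023 (log2 fold change 3.03, SE 0.11, adjusted p = 5.52e-05); its isgCtrl mean of 4.03 TPM was above the DMSO mean. IL2RG, the shared receptor chain for several interleukins, rose from 102, 96.5 and 94.4 to 233, 239 and 237 TPM. IL15, a growth factor of NK cells, went from 1.84, 1.67 and 1.97 to 3.89, 5.098 and 4.61 TPM (0.96, SE 0.10).

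In the TNF family 7 of 16 genes were higher and 0 lower. TNFSF9, the ligand of the T cell receptor 4-1BB, had 41.3, 37.8 and 42.2 TPM in DMSO and 89.7, 93.5 and 93.9 TPM in MS023, with 34.6 TPM in isgCtrl. TNFRSF10B, a death receptor for TRAIL, went from 1.76 to 5.25 TPM on average (1.18, SE 0.08, adjusted p = 0.000217). CD40 rose by 1.96, from 1.505, 1.05 and 1.54 to 7.44, 9.38 and 7.76 TPM, and was at 0.11 TPM in isgCtrl. FAS had a log2 fold change of -0.02 (SE 0.06) and was not called. TNF itself was too low to be tested.

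NF-kB genes as a whole stood closer to the background, with 5 of 24 higher and 2 lower (1 after median-ratio scaling). The feedback inhibitors NFKBIA and TNFAIP3 had log2 fold changes of -0.04 (SE 0.06) and 0.15 (SE 0.12), neither called. TRAF1, an adaptor of TNF receptors, rose from 1.21, 1.37 and 1.61 to 4.57, 5.05 and 5.04 TPM, and TNIP2, which binds the inhibitor A20, from 22.4, 17.7 and 23.7 to 49.8, 49.03 and 48.9 TPM. ICAM1, an adhesion molecule, rose by 0.87 (SE 0.08, adjusted p = 0.000612).

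Interferon-stimulated genes rose broadly. 30 of 47 were higher and 2 lower, with a median of 0.91. ISG15, a ubiquitin-like modifier, had 12.6, 15.2 and 14.8 TPM in DMSO and 41.7, 43.9 and 34.7 TPM in MS023 (1.43, SE 0.12, adjusted p = 0.000341), and its isgCtrl mean was 13.5 TPM. IRF7, which drives interferon transcription, went from 5.22, 5.46 and 6.33 to 17.3, 19.4 and 23.97 TPM, with 4.37 TPM in isgCtrl. OASL, an antiviral factor, went from 0.085, 0.247 and 0.124 to 3.599, 3.48 and 2.85 TPM. ISG15 and IRF7 were thus near their isgCtrl level in DMSO and higher with MS023. OASL was near 0 in DMSO and also higher with MS023.

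Other interferon-stimulated genes already differed between the 2 controls. MX1, an antiviral GTPase, had 3.47, 4.36 and 3.25 TPM in DMSO, 13.2, 11.6 and 15.8 TPM in MS023 and a mean of 0.42 TPM in isgCtrl. IFI6 went from a mean of 9.57 to 32.8 TPM, against 1.67 TPM in isgCtrl, and IFI16, a DNA sensor, from 14.9 to 30.8 TPM, against 1.62 TPM. Over control-matched genes 14 of 26 were higher and 2 lower, beside 1080 and 2158 of all 10826 such genes. Of the interferon-stimulated genes with the response element 13 of 25 were higher, against 10 of the 14 without it.

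Sensors, factors and ligands of interferon signalling changed in both directions, and IRF1, IRF9, STAT2 and IFNG were picked after their values were seen. IFIH1, a sensor of double-stranded RNA, fell from 10.8, 11.1 and 11.1 to 6.66, 6.88 and 7.15 TPM, a call lost under quantile normalization. STAT2 and IRF9, factors of the type I interferon response, rose by 0.60 (SE 0.11) and 0.77 (SE 0.14). IRF1 rose from 41.4, 38.4 and 34.2 to 64.9, 72.1 and 79.8 TPM. IFNG, which encodes interferon gamma, fell from 12.8, 15.8 and 11.8 to 5.598, 5.396 and 6.02 TPM (-1.11, SE 0.11, adjusted p = 0.00071). Thus IFIH1 and IFNG were lower in every MS023 library while CXCL9, CXCL10 and IRF1 were higher.

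**Figure D2:**
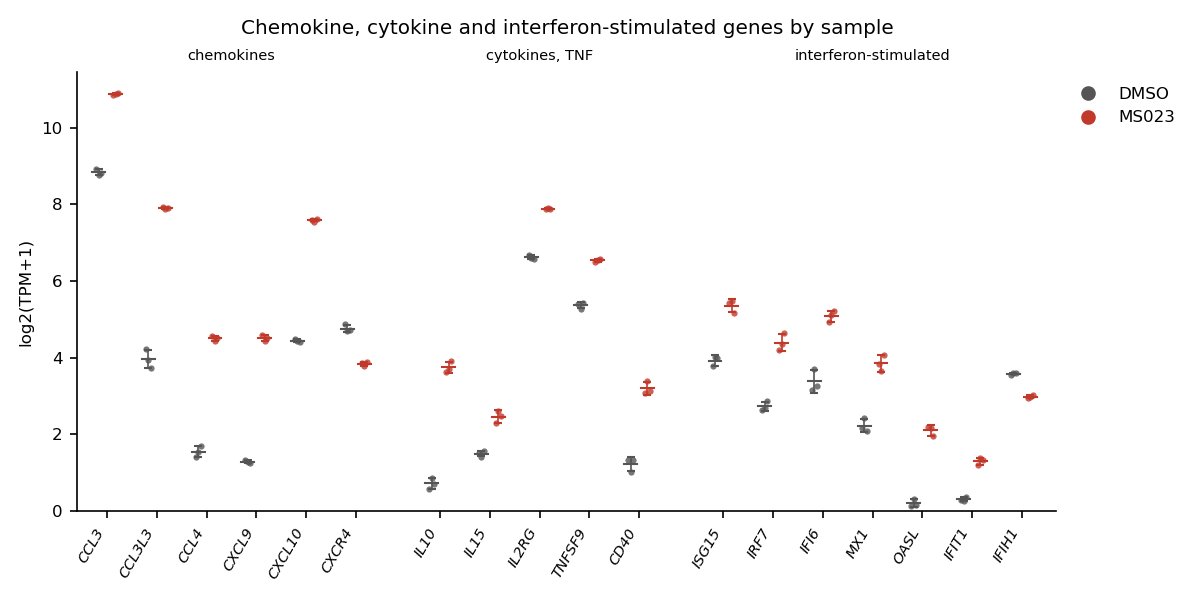
Values in log2(TPM+1) (y axis) of chemokine, cytokine, TNF family and interferon-stimulated genes (x axis) in each DMSO (grey) and MS023 (red) library, with the mean (line) and SD (error bar) of 3. All genes shown are higher with MS023 except CXCR4 and IFIH1.

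Plasma cell genes were higher in 12 of 19 cases and lower in 1. XBP1, the factor of the secretory programme, had 219, 227 and 226 TPM in DMSO and 491, 498 and 499.6 TPM in MS023 (1.15, SE 0.06, adjusted p = 8.51e-05), and 244 TPM in isgCtrl. PRDM1, which silences B cell genes, went from 23.2 to 35.6 TPM (0.60, SE 0.11). IRF4 was not called at 0.19 (SE 0.12), nor was the maturation antigen gene TNFRSF17 at -0.04 (SE 0.07).

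Surface genes that antibodies target moved in both directions. SLAMF7 rose from 9.23, 8.71 and 10.01 to 54.7, 48.1 and 53.8 TPM (2.37, SE 0.08, adjusted p = 5.52e-05), with 0.369 TPM in isgCtrl. CD38 fell from 5.41, 4.65 and 4.81 to 2.06, 2.27 and 2.38 TPM (-0.88, SE 0.08, adjusted p = 0.000465), with 1.32 TPM in isgCtrl. CD28, a costimulatory receptor, rose from 8.81, 7.46 and 7.81 to 40.1, 32.8 and 35.5 TPM, with 1.5 TPM in isgCtrl, and JCHAIN, which joins immunoglobulin polymers, rose by 1.12 (SE 0.06). MZB1, a chaperone of immunoglobulin assembly, rose by 0.75 (SE 0.06) from a DMSO mean of 105 TPM, against 2.01 TPM in isgCtrl. Over control-matched genes 6 of 10 plasma cell genes were higher and 0 lower.

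Genes of the unfolded protein response and ER secretion were higher in 12 of 32 cases and lower in 0, with a median of 0.40. The count was 20 higher after median-ratio scaling. HERPUD1, which serves ER-associated degradation, had 46.8, 49.9 and 45.3 TPM in DMSO and 188, 182 and 206 TPM in MS023 (2.0, SE 0.08, adjusted p = 5.52e-05). DNAJB9, a co-chaperone that restrains the sensor IRE1, went from 11.6, 15.1 and 9.55 to 46.9, 45.5 and 47.5 TPM. HSPA5, the main ER chaperone BiP, went from 187, 187 and 189.6 to 361, 361 and 373 TPM (0.95, SE 0.06, adjusted p = 0.000129). CALR, a lectin chaperone, rose by 1.0 (SE 0.06), whereas HSP90B1 and CRELD2, whose windows hold the same element, had 0.38 (SE 0.07) and 0.40 (SE 0.07) and were not called on the deposited scale but were called after median-ratio scaling. Over control-matched genes 9 of 25 were higher. Of the list genes with the ER stress element 3 of 7 were higher, against 8 of 23 without it.

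Genes of the ATF4 response were called at close to the shares over all genes tested. Of 29 genes 3 were higher and 6 lower. ATF4 itself rose from 362, 377 and 352 to 513, 524 and 523 TPM (0.51, SE 0.06) and ATF5 from 49.3, 55.2 and 55.3 to 112, 109 and 121 TPM. ASNS, TRIB3 and PSAT1, amino acid and stress genes that ATF4 activates, had log2 fold changes of -0.01, 0.09 and -0.10 and were not called. XPOT, a tRNA exporter, fell by 1.20 on the log2 scale (SE 0.10), and the aminoacyl-tRNA synthetases had 3 of 20 lower and 0 higher.

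Sterol and fatty acid synthesis had the highest share of rises among lists with at least 10 tested members. Of 32 genes 21 were higher and 1 lower, with a median of 0.70, and over control-matched genes 20 of 29 were higher. HMGCS1, an early enzyme of the mevalonate pathway, had 54.3, 50.9 and 50.9 TPM in DMSO and 205, 194 and 229 TPM in MS023 (1.99, SE 0.08, adjusted p = 6.16e-05), with 50.1 TPM in isgCtrl. MSMO1, a late enzyme of cholesterol synthesis, went from 17.5, 15.9 and 15.1 to 63.4, 69.1 and 65.7 TPM. SQLE, the squalene epoxidase, rose by 1.29 (SE 0.07).

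The regulators of the pathway moved in both directions. INSIG1, which retains the sterol sensor in the ER, rose from 192, 182 and 196 to 663, 658 and 684 TPM. SREBF2, which encodes the main activator of the sterol genes, rose by 0.59 (SE 0.09). SREBF1, which encodes an activator of fatty acid genes, fell from 86.6, 80.3 and 82.6 to 48.9, 48.2 and 49.9 TPM (-0.75, SE 0.06, adjusted p = 0.000343), while its target FASN rose from 134, 128 and 136 to 262, 215 and 220.5 TPM. ABCA1, the cholesterol exporter that LXR induces, fell by 0.69 on the log2 scale (SE 0.07).

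Lysosomal genes were higher in 28 of 58 cases and lower in 5, with a median of 0.44. LGMN, a lysosomal protease, had 45.4, 46.5 and 50.7 TPM in DMSO and 236, 235 and 236 TPM in MS023 (2.29, SE 0.07, adjusted p = 4.65e-05), with 13.4 TPM in isgCtrl. CTSB, cathepsin B, went from 34.3, 34.3 and 35.9 to 119, 119.8 and 135 TPM, and SQSTM1, the autophagy receptor p62, from 251, 239.9 and 241 to 806, 816 and 872 TPM. PSAP, a precursor of sphingolipid activators, rose by 1.23 and CTSD, cathepsin D, by 1.01. LAMP1, a membrane protein, rose by 0.51 (SE 0.08), a call lost without DMSO replicate 2 (0.47, adjusted p = 0.0117) or MS023 replicate 3 (0.47, adjusted p = 0.0105).

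The falls in this list were LAMP5, which is not a ubiquitous lysosomal protein, and the hydrolases GALNS, MAN2B1, GUSB and NAGLU. MAN2B1 lost its call in 7 alternative fits, 4 of them with 1 replicate left out (adjusted p = 0.0602 to 0.0643), and after median-ratio scaling 2 of the list were lower. LAMP5 went from 133, 129.8 and 135 to 79.5, 75.1 and 79.2 TPM (-0.76, SE 0.06, adjusted p = 0.00031). Over control-matched genes 18 of 39 lysosomal genes were higher and 5 lower. Among those with the E-box 4 of 7 were higher and 1 lower, against 16 of 32 higher without it.

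**Figure D3:**
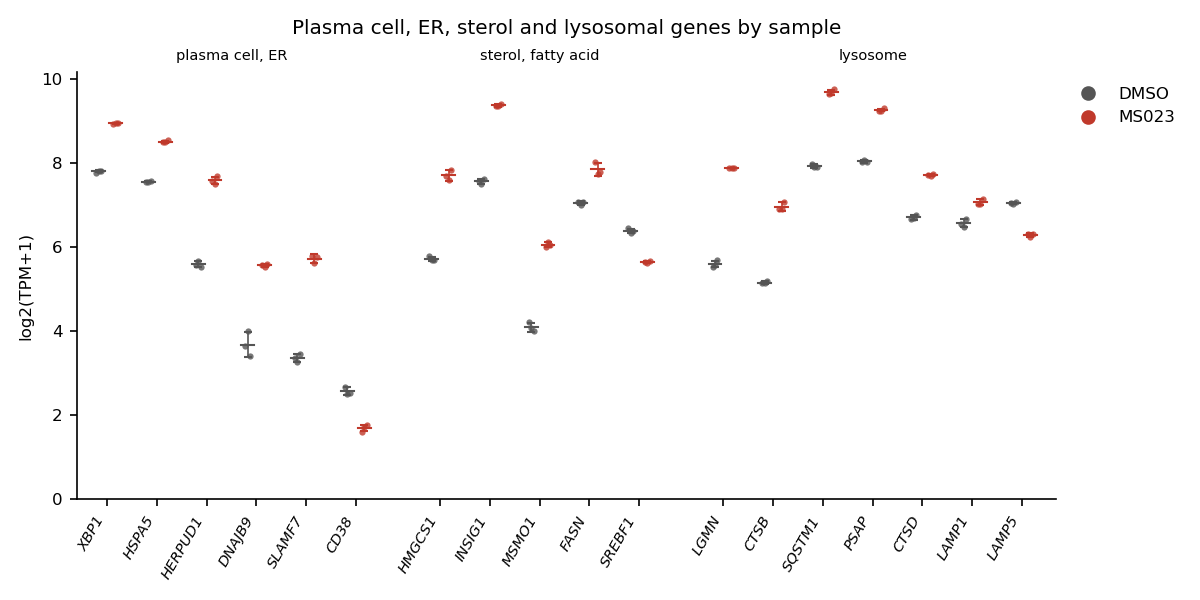
Values in log2(TPM+1) (y axis) of plasma cell, ER, sterol, fatty acid and lysosomal genes (x axis) in each DMSO (grey) and MS023 (red) library, with the mean (line) and SD (error bar) of 3. CD38, SREBF1 and LAMP5 are lower with MS023 and the other genes shown are higher.

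Among the myeloma driver genes, CCND2, a D-type cyclin that promotes entry into the cell cycle and a target of MAF in myeloma, lies on chromosome 12 from 4269771 to 4305353 on the plus strand of GRCh38. It had 61.5, 67.4 and 61.5 TPM in DMSO and 833, 859 and 827 TPM in MS023, a 13.2-fold higher mean (3.71, SE 0.07, adjusted p = 1.1e-05), with 33.6 TPM in isgCtrl. CCND1 rose from 2.19, 1.19 and 1.77 to 7.26, 4.69 and 5.39 TPM, while the third D-type cyclin gene, CCND3, had a log2 fold change of -0.28 (SE 0.07) and was not called. MAF itself had means of 84.4 TPM in DMSO and 84.4 TPM in MS023, and MYC a log2 fold change of 0.14 (SE 0.06), and neither was called. Over the whole list 4 of 15 genes were higher and 2 lower, and over control-matched genes 0 of 8 were higher. CDKN2C, an inhibitor of the kinases that D-type cyclins activate, fell from 268, 275 and 284 to 74.7, 77.8 and 70.8 TPM (-1.88, SE 0.07, adjusted p = 5.52e-05). ITGB7, an integrin gene also induced by MAF, rose from 459.6, 432 and 466 to 1406, 1446 and 1500.5 TPM, against 97.4 TPM in isgCtrl.

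BTG1, an antiproliferative gene, rose from 21.5, 22.98 and 17.3 to 153, 161 and 155 TPM (2.87, SE 0.11, adjusted p = 5.52e-05). CDKN1A, the kinase inhibitor p21, went from 80.2, 77.2 and 76.1 to 170.4, 171 and 171 TPM, and MDM2, a ubiquitin ligase, from 19.5, 13.3 and 14.3 to 34.2, 40.9 and 41.8 TPM. DDB2, a DNA damage sensor, fell from 16.9, 15.1 and 14.7 to 4.12, 3.701 and 4.11 TPM (-1.73, SE 0.08). CDKN1A and MDM2 were at 56.1 and 14.6 TPM in isgCtrl.

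Cell death genes moved on both sides of the balance. Of 32 genes of the BCL2 family, caspases and their regulators 7 were higher and 3 lower, against 10 and 1 after median-ratio scaling. BMF, which promotes apoptosis by binding BCL2 proteins, went from 5.25, 6.0 and 5.25 to 18.99, 16.7 and 16.5 TPM (1.5, SE 0.09). The protective genes CFLAR, BCL2L1 and MCL1 also rose, by 1.32 (SE 0.06), 0.97 (SE 0.10) and 0.73 (SE 0.06). BID, an activator of the mitochondrial pathway, fell from 73.2, 80.4 and 77.6 to 47.6, 53.8 and 44.4 TPM. BCL2 (-0.27, SE 0.06) and BCL2L11 (0.29, SE 0.12) were not called.

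Immediate early and ERK feedback genes gave 11 higher and 4 lower of 29, with 2 lower after median-ratio scaling and 1 after quantile normalization. DUSP5, a nuclear phosphatase of ERK, went from 14.4, 15.2 and 17.4 to 174, 178 and 193 TPM, an 11.6-fold higher mean (3.46, SE 0.09, adjusted p = 4.45e-05), with 8.78 TPM in isgCtrl. DUSP4 rose by 1.07 (SE 0.07), while DUSP6, the cytoplasmic one, had 0.10 (SE 0.20) and EGR1 0.01 (SE 0.06), neither called. KLF6 and MAFF, transcription factors induced by growth signals, rose from 14.9, 14.7 and 14.6 to 42.8, 41.6 and 45.6 TPM and from 5.62, 6.11 and 4.81 to 21.7, 21.9 and 22.6 TPM.

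Adhesion and matrix genes were higher in 13 of 27 cases and lower in 2. CD44, the hyaluronan receptor, rose from 40.8, 37.4 and 44.8 to 136, 110.1 and 137 TPM, with 35.9 TPM in isgCtrl. ITGA4, which pairs with integrin beta 1 or beta 7 to bind VCAM1, fell from 29.6, 26.5 and 27.96 to 14.7, 10.5 and 12.8 TPM (-1.10, SE 0.13, adjusted p = 0.00105). GJB2, a gap junction protein, and EDNRB, an endothelin receptor, rose by 2.54 (SE 0.08) and 2.57 (SE 0.07). Over control-matched genes 6 of 16 were higher.

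Of the S100, galectin, annexin and thymosin genes 7 of 24 were higher, and 2 of 13 over control-matched genes. LGALS1, galectin-1, went from 1153, 1302 and 1184 to 4793, 5038 and 4532 TPM, with 193 TPM in isgCtrl. ANXA1 rose by 2.19 (SE 0.25). S100A10 had a log2 fold change of -1.22 with an SE of 0.52; its DMSO libraries ranged from 11.6 to 51.2 TPM, and it was not called (adjusted p = 0.0962). It was called lower under the replicate block (adjusted p = 0.0417) and without DMSO replicate 3 (-1.81, adjusted p = 0.00531).

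In glycolysis and hypoxia 12 of 31 genes were higher and 2 lower, and 7 of 24 were higher over control-matched genes. ADM, the hypoxia-induced hormone adrenomedullin, went from 12.8, 7.89 and 10.99 to 37.4, 37.5 and 38.1 TPM, with 0.252 TPM in isgCtrl. SLC2A3, a glucose transporter, rose from 1.32, 1.05 and 1.18 to 4.76, 5.75 and 5.93 TPM. PFKP, a phosphofructokinase, fell from 59.9, 55.9 and 60.3 to 22.1, 22.4 and 24.5 TPM (-1.31, SE 0.07, adjusted p = 0.0001), and LDHA was not called at 0.14 (SE 0.06).

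Respiratory chain genes encoded in the nucleus were lower in 10 of 76 cases and higher in 0, against 5 lower and 3 higher after median-ratio scaling. The share lower on the deposited scale, 13.2%, was below the 19.3% over all genes tested. UQCRH, a subunit of complex III, fell from 2672, 2522 and 2634 to 1628, 1630.2 and 1579.7 TPM. Of the 13 genes encoded in mitochondrial DNA 2 were higher and 0 lower, the former MT-ND6 (0.78, SE 0.08) and MT-ND5 (0.53, SE 0.08), both subunits of complex I. MT-ND5 lost its call without MS023 replicate 3, at 0.48, adjusted p = 0.00685.

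RNA-binding proteins include many substrates of type I enzymes. Of 56 hnRNP, SR and RGG genes 20 were lower and 1 higher, with a median of -0.35. After median-ratio scaling these counts were 10 and 2, beside 1903 and 1970 of the 12903 genes tested, so that the share lower was then near that of all genes. The list's median was -0.23 on that scale, beside -0.008 over all genes. SRSF1, a splicing factor, fell from 422, 381 and 449 to 224, 230.1 and 235 TPM (-0.86, SE 0.08, adjusted p = 0.000524), and HNRNPA3 from 364, 349.7 and 360.2 to 201, 191 and 195 TPM. RBM3, a cold-induced RNA-binding protein, was the member that rose (0.52, SE 0.07, adjusted p = 0.00176). HNRNPDL was not called at -0.26 (SE 0.06).

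Ribosomal protein genes stayed below the background. Of 79 ribosomal protein genes 1 was lower, RPL22 (-0.48, SE 0.06), and 0 were higher; RPL22 lost its call after median-ratio scaling (-0.36) and without DMSO replicate 2 (-0.47) or MS023 replicate 3 (-0.46). In ribosome biogenesis 8 of 42 were lower and 1 higher, against 5 and 2 after median-ratio scaling. NOP56, a component of the methylating nucleolar particles, fell from 459, 477 and 470.5 to 252, 251 and 248 TPM, while NPM1 and NCL, abundant nucleolar proteins, were not called, with means of 3498 and 496 TPM in DMSO and 3504 and 489 TPM in MS023.

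Among histone and DNA modifying enzymes 13 of 51 were lower and 1 higher (7 and 2 after median-ratio scaling). After that scaling 1903 of the 12903 genes tested were lower, so the list's share lower was then near that of all genes. DNMT1, the maintenance DNA methyltransferase, went from 82.9, 97.3 and 97.03 to 40.3, 33.1 and 40.3 TPM (-1.27, SE 0.11, adjusted p = 0.000431), and EZH2, which methylates lysine 27 of histone H3, from 40.9, 38.9 and 39.5 to 20.3, 19.7 and 20.6 TPM. Expression of both is known to follow the cell cycle. KDM5B, a histone demethylase, rose from 5.75, 5.64 and 5.999 to 11.5, 8.39 and 11.7 TPM. The replication-independent histone H2AZ1 fell by 0.83 on the log2 scale (SE 0.06), while H2BC12 rose by 1.06 (SE 0.08). Of 24 histone genes 6 were higher and 3 lower, and many have near-identical copies.

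Of the 8 arginine methyltransferase genes tested 3 were lower and 0 higher. PRMT1 had 634, 657 and 669.6 TPM in DMSO and 664, 700.0 and 656 TPM in MS023, overlapping values that were not called (0.04, SE 0.06). PRMT3, a type I enzyme of the ribosome, fell from 26.03, 23.6 and 24.7 to 11.2, 10.2 and 10.4 TPM (-1.15, SE 0.07, adjusted p = 0.000139). PRMT9, a type II enzyme that methylates a splicing factor, fell from 8.25, 7.11 and 6.39 to 2.66, 3.28 and 3.92 TPM. PRMT6, a type I enzyme of histone H3, had -0.56 (SE 0.08), a call lost under median-ratio scaling (-0.45, adjusted p = 0.00589) and quantile normalization (-0.43, adjusted p = 0.00624).

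WNT genes fell in 5 of 15 cases. NKD2, an inhibitor of the pathway on chromosome 5 from 1008802 to 1038943 on the plus strand of GRCh38, had 33.3, 29.04 and 34.8 TPM in DMSO and 4.79, 2.89 and 3.79 TPM in MS023 (-2.81, SE 0.16, adjusted p = 0.000112), the largest fall by the naming rule. LRP5, a WNT co-receptor, fell from 14.3, 15.6 and 15.8 to 7.19, 7.39 and 7.52 TPM, and AXIN2, a target of the pathway, had means of 1.33 and 1.33 TPM and was not called. In the NOTCH list 3 of 13 were higher, with HEY1 from 2.32, 2.05 and 2.33 to 7.38, 6.95 and 8.25 TPM, and 3 lower, with HES6 from 51.4, 53.4 and 51.5 to 20.1, 17.6 and 19.95 TPM. Heat shock proteins gave 7 lower and 2 higher of 27, and the proteasome 6 lower and 3 higher of 44, with 3 lower after median-ratio scaling. HSPA4L, a chaperone of the HSP110 family, fell by 1.54 on the log2 scale (SE 0.09), and PSMG4, an assembly chaperone of the proteasome, by 1.44 (SE 0.08).

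**Figure D4:**
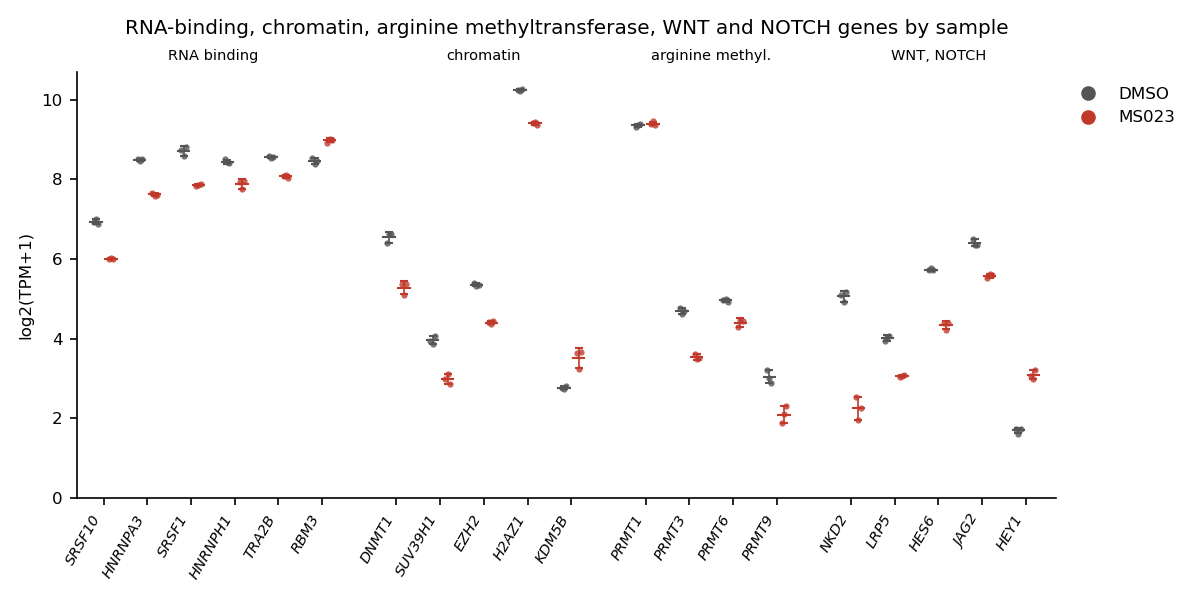
Values in log2(TPM+1) (y axis) of RNA-binding, chromatin, arginine methyltransferase, WNT and NOTCH genes (x axis) in each DMSO (grey) and MS023 (red) library, with the mean (line) and SD (error bar) of 3. RBM3, KDM5B and HEY1 are higher with MS023, PRMT1 overlaps between the groups, and the other genes shown are lower.

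Outside these lists PRSS2 had the largest rise by the naming rule. It encodes a trypsinogen, on chromosome 7 from 142760398 to 142774564 on the plus strand of GRCh38, and has near-identical relatives. Its values were 0.778, 0.972 and 1.22 TPM in DMSO and 104, 92.4 and 94.01 TPM in MS023 (5.62, SE 0.10, adjusted p = 1.1e-05), with 0.172 TPM in isgCtrl. MYO1E, a membrane-binding myosin, rose by 2.79 (SE 0.22) and PCDH1, a protocadherin, by 2.55 (SE 0.08). APOL3, an apolipoprotein L gene, went from 9.05, 8.36 and 7.02 to 48.3, 47.6 and 47.8 TPM but was at 0.446 TPM in isgCtrl.

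On the falling side, NMU, a neuropeptide, went from 119, 116 and 108 to 20.4, 16.9 and 17.8 TPM (-2.58, SE 0.09, adjusted p = 5.52e-05). OPN3, an opsin, fell from 17.1, 19.2 and 17.7 to 1.65, 2.32 and 1.95 TPM. GAS6, the ligand of the receptor AXL, fell from 45.2, 39.4 and 42.2 to 8.68, 8.94 and 8.08 TPM, with 23.6 TPM in isgCtrl. ADCY3, an adenylyl cyclase, and TSHR, the thyrotropin receptor that signals through such cyclases, fell by 2.03 (SE 0.17) and 1.92 (SE 0.15) on the log2 scale. TSHR had 10.7 TPM in DMSO and 13.7 TPM in isgCtrl. The isgCtrl means of NMU, OPN3 and ADCY3, at 155, 16.8 and 36.1 TPM, were close to those of DMSO, at 114, 17.97 and 30.9 TPM.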

How the data were processed

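RNA of 12 JJN3 samples was sequenced by the study, and gene values in log2(TPM+1) were deposited by the authors. By the study's methods, Trimmomatic trimmed the reads, STAR aligned them to hg38 using the GENCODE V35 annotation, and Salmon quantified them; tool versions are not given in the sources used here. No step upstream of the deposited log2 values was repeated. TPM hold no read depth, so the precision given by depth is unknown.

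Groups came from the labels. MS023 (n = 3) was compared with DMSO (n = 3) by limma (version 3.58.1, R version 4.3.3) without covariates or a mean-variance trend, on genes with a group mean above 1; code was tested on simulated data. Called genes (DEGs) passed 0.05 for the Benjamini-Hochberg adjusted p and 0.48 for the size of the log2 fold change. Named genes are the 15 largest rises and falls among called genes whose groups do not overlap, with a mean log2(TPM+1) above 3 in the higher group, outside cell division and without non-coding RNA symbols, dotted symbols or symbols ending in P and a number (which left out DUSP5); the 3 largest rises and falls of each list; and the lists' anchor genes. IFNG, IRF1, IRF9, STAT2, IFIT3, CCL5, JCHAIN, CALR, HSP90B1, CRELD2, CTSA, SREBF2, SQLE, CCND3 and the genes of the light chain panel were added after their values were seen. The comparison, its lists and their members were chosen with earlier results of these data known.

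Positions come from GENCODE v44 on GRCh38, promoter sequences from RefSeq on GRCh38.p14. Alternatives were all genes above 0 fitted, values above 1 required in every sample, quantile normalization, median-ratio scaling, a replicate block, a mean-variance trend in eBayes, 0.1 as pseudocount, all 12 samples in 1 fit, each replicate left out in turn, a fold change threshold of 1 or none on the log2 scale and, added after the light chain values were seen, only genes whose DMSO mean is within 0.5 of isgCtrl. Some genes and 1 of the lists are not reported here.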

Additional observations from a re-analysis of the deposited data

Results flagged for a closer look

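Data outside the comparison showed a signal that differed between the 2 control groups. IGLV2-14 had a mean of 3456 TPM in DMSO, against 19.4 TPM in isgCtrl and 5.93 TPM in PRMT1-KO. It rose with MS023, by 0.90 (SE 0.07, limma adjusted p = 0.000242). The source of these transcripts was not tested. Groups here have 3 libraries each, too few for a search for single outlying libraries.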

How the results depend on the processing

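The fold change threshold moved the counts most. At an absolute log2 fold change above 1, 1083 genes were called, 465 higher and 618 lower; with no fold change threshold 6300 were called, 2378 higher and 3922 lower, against 3986, 1500 and 2486 at 0.48. Under every other alternative run these 3 counts stayed within 1.5 times, with 3707 to 3978 called when 1 replicate was left out. The replicate block gave 4018 called genes, 3844 of them shared with the fit without it; deviations of same-numbered samples correlated at 0.0213, 0.0732 and 0.102, so that the numbers were not taken to pair the samples. Of 214 named genes called, 185 kept their call in every fit that held them, and none changed direction while called. Some low genes were absent from the fit that required values above 1 in every sample. Counts of members called per list stayed within 1.5 times in 1044 of the list counts and moved further in 96. Over control-matched genes, the interferon-stimulated list had 14 rises in place of 30, the chemokine list 3 in place of 10 and the plasma cell list 6 in place of 12, while the sterol list had 20 in place of 21. The causes of these moves were not tested, except that fewer genes enter the control-matched counts. TPM carry no depth, so how far depth limits low genes is unknown.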

Other observations

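Longer genes were lower more often. Among protein-coding genes with a GENCODE v44 position, 15.7% of the 2747 with the shortest genomic span were higher and 15.3% lower, against 7.1% and 23.2% of the 2746 with the longest span, where the median log2 fold change was -0.19. This is a description across genes, which are not independent replicates.

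Ligands for NK and T cells were higher in 5 of 16 cases and lower in 0, and in 3 of 12 over control-matched genes. CTLA4 and CD80 are among the rises in both counts. They had DMSO means of 0.27 and 0.38 in log2(TPM+1) and were tested only through MS023, so only a rise could be called. At 0.053 and 0.088 TPM in isgCtrl they are near 0 in both controls, where the limit does not show that the controls are alike. MICA, a stress ligand of the NK receptor NKG2D, had 4.04, 2.72 and 2.13 TPM in DMSO and 6.96, 8.22 and 9.64 TPM in MS023 (1.25, SE 0.20, limma adjusted p = 0.00355), with 1.59 TPM in isgCtrl. CD274, which encodes PD-L1, had 0.606, 0.146 and 1.01 TPM in DMSO and 1.44, 1.22 and 1.25 TPM in MS023, and its limma adjusted p of 0.0565 missed the threshold; it was called after median-ratio scaling (0.63, adjusted p = 0.0376), with all 12 samples in 1 fit (adjusted p = 0.0168) and without DMSO replicate 3 (0.76, adjusted p = 0.0178). CTLA4, which is counted in this list although it encodes an inhibitory receptor of T cells, went from a mean of 0.217 to 1.15 TPM (0.83, SE 0.13).

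Markers of other tissues were few and moved in both directions. Of 7 stromal markers 3 were tested, with 1 higher (COL1A1, 0.68, SE 0.15) and 1 lower (ACTA2, -1.34, SE 0.16); COL1A1 lost its call with all 12 samples in 1 fit (adjusted p = 0.25). Of 6 epithelial markers 3 were tested, with 2 higher and 1 lower. Of the higher ones, CDH1 went from a mean of 0.389 to 2.23 TPM (1.21, SE 0.15) and was tested only through its MS023 mean. EPCAM had 89.4, 91.2 and 92.5 TPM in DMSO and 62.7, 63.6 and 58.5 TPM in MS023. This fall lost its call under median-ratio scaling and quantile normalization. Of B cell genes 4 of 9 were higher and 1 lower, and of 10 LXR targets 4 were higher and 2 lower. Of 8 erythroid and platelet markers 2 were tested and 0 were called by limma.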
